A study of Mus musculus with 12 samples.

Results

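The exons described here are cassette exons: exons that a transcript either holds or skips whole, and whose length is a multiple of 3, so that the reading frame after the exon is the same with and without it. They were chosen from the skipped-exon events listed for mouse gastrocnemius and quadriceps as those over 60 bases and divisible by 3, leaving out the giant sarcomere genes Ttn and Neb. In the gastrocnemius this gave 679 of 1769 skipped-exon events, which are 632 exons of 491 genes, and in the quadriceps 681 of 1763 events, which are 634 exons of 495 genes. The 2 tables share 676 of these events, and together they hold 637 exons of 496 genes. Of the other skipped exons in the gastrocnemius, 380 events were of 60 bases or fewer, 469 were longer and shift the frame, and 241 lie in Ttn or Neb (quadriceps 379, 471 and 232).

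The muscles came from 6 female mice, 30 weeks old, of which 3 spent 9 weeks on the International Space Station and 3 were kept on the ground in identical hardware. The strain is given as C57BL/6 in the sample labels and as BALB/c in the study's methods, and every mouse, flight or ground, received injections of phosphate-buffered saline. Both muscles were taken from the left hind limb of each frozen and thawed carcass, giving 4 groups of 3 (gastrocnemius ground, gastrocnemius flight, quadriceps ground, quadriceps flight), and polyadenylated RNA was sequenced in 12 stranded single-end libraries. The exon counts are listed for the 3 samples of each group without names. Exon values are therefore given here in list order, and those of one muscle cannot be matched to the same mouse in the other.

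Cassette exons that keep the frame let a gene make a longer and a shorter form of the same protein, which differ by a stretch of amino acids and are alike on both sides of it. Exons that shift the frame more often bring a premature stop codon into the transcript, which can send it to nonsense-mediated decay. Striated muscle is among the tissues richest in such alternative forms, and many of its genes for contraction, calcium handling and cell structure switch exons as fibres mature and differ between fibre types.

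The sequences of 8 exons are printed because the comparisons turn on them: those of the exon whose flight difference differed between muscles (Cat), 5 of the 6 exons that differed between muscles (Mtdh, Chtop, Phka1, Pphln1, Qser1), and 2 named exons whose flight samples lay below the ground samples in both muscles (Lrrfip1, Add1). They run 5′ to 3′ on the strand of the gene, with the exon in capitals and the 20 bases of the neighbouring exon on each side in lower case, so that skipping joins the lower-case ends directly. Positions are 1-based in GRCm38 (mm10), and exon numbers are those of the named GENCODE vM21 transcripts.
Cat: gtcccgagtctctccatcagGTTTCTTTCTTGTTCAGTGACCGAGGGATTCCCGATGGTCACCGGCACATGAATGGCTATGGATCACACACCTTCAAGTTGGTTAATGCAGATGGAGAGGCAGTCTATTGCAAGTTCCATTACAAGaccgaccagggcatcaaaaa
Mtdh: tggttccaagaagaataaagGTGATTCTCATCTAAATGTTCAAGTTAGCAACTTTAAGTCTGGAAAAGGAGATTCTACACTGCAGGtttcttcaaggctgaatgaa
Chtop: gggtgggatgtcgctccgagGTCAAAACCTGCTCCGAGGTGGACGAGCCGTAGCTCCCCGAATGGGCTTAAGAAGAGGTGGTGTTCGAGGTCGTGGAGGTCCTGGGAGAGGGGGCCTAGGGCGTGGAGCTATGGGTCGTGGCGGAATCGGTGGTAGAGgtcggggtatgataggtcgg
Phka1: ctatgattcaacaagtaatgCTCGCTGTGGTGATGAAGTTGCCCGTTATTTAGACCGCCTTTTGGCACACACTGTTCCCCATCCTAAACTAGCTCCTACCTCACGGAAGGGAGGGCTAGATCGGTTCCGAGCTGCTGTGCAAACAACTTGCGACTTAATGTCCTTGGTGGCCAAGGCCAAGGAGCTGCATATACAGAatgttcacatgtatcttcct
Pphln1: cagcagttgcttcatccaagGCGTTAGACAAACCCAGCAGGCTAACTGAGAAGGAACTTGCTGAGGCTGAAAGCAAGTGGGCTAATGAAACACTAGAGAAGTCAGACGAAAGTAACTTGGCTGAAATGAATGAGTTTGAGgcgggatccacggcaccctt
Qser1: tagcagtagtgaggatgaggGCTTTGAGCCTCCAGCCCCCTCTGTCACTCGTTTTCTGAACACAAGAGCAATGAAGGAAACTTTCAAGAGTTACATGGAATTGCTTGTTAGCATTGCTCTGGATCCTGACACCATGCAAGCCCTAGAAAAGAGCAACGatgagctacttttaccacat
Lrrfip1: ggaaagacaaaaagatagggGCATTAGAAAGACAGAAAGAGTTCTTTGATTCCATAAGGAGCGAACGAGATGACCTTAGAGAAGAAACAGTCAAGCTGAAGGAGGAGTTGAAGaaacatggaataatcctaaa
Add1: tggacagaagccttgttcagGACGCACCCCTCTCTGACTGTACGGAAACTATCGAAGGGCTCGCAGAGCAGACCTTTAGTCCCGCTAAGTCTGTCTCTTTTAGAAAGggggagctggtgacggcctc

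The Cat exon (chr2:103470299-103470424, minus strand) is exon 6 of 13 in its transcript and has 126 bases. Those of Mtdh (chr15:34116311-34116376, plus), Chtop (chr3:90502116-90502253, minus), Phka1 (chrX:102557096-102557272, minus), Pphln1 (chr15:93459672-93459791, plus) and Qser1 (chr2:104770043-104770180, minus) have 66, 138, 177, 120 and 138 bases. The Lrrfip1 exon (chr1:91110355-91110447, plus) and the Add1 exon (chr5:34620832-34620918, plus) have 93 and 87. Each of the 8 is coding throughout in the annotation.

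Exon length ran from 63 to 3804 bases, with a median of 111 bases or 37 codons, and 22 exons were over 300 bases. The annotation placed 529 of 632 gastrocnemius exons (83.7%) inside coding sequence throughout, 28 in transcripts marked for nonsense-mediated decay, 27 across a start or stop codon, 24 in non-coding or retained-intron transcripts and 21 in untranslated regions; the ends of 3 were not in it. Quadriceps exons fell into the same classes with 531 of 634 (83.8%) coding throughout. Each exon was counted once, by the first class that applied: coding throughout, start or stop codon, untranslated region, decay, then non-coding. The decay class thus leaves out exons that are also in a protein-coding transcript. Among exons of the same length range that shift the frame, 257 of 455 (56.5%) were coding throughout and 64 were in decay transcripts in the gastrocnemius. The coding exons held 0 stop codons in their own frame in either muscle, which follows from how this class was defined and is not a finding. Of the 529 coding exons in the gastrocnemius, 256 (48.4%) began at a codon boundary, 194 (36.7%) after the first base of a codon and 79 (14.9%) after the second, so that in the first class whole codons are added or removed and in the others the codon at the joint is changed as well. Median GC content was 50.5% (lowest 26.2%, highest 81.0%, 629 exons with a value), against 47.2% in the frame-shifting exons. Both inclusion junctions were annotated for 618 of 679 gastrocnemius events (91.0%) and the skipping junction for 546 (80.4%). Members are not independent: 34 exons had over 1 event, 100 genes had over 1 exon, and 80 events shared their skipping junction with another of these events.

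Inclusion is given as percent spliced in (PSI), the share that hold the exon among transcripts that hold or skip it between the same neighbours. It comes from inclusion reads over an effective length of 98 bases and skipping reads over 49. Junction reads over all of these events came to 33931, 36050 and 34646 in the gastrocnemius ground samples, 39959, 36413 and 41389 in flight, 37907, 46219 and 30694 in the quadriceps ground samples and 41389, 36769 and 36364 in flight. For the comparisons an event had to average over 10 junction reads in each group of the muscle, and events with all 6 PSI values within 5% of the same end of the scale were dropped. This left 590 in the gastrocnemius (551 exons, 426 genes) and 563 in the quadriceps (521 exons, 414 genes). Of the 89 left out in the gastrocnemius, 66 had too few reads and 23 were at an extreme, and of the 118 in the quadriceps, 103 and 15. Kept events had a median of 26 to 31.5 reads a sample in the gastrocnemius and 25 to 37 in the quadriceps, so that a single skipping read moves many of them by several percent.

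Quadriceps ground sample 3 stood apart from the other 11 samples. It had 17 events with no read at all, 6 of them kept, where every other sample had 0, and 92 kept events with under 10 reads against 15 to 25 in the other quadriceps samples. In that sample 220 kept events (39.1%) were at 100% inclusion and 59 (10.5%) at 0%, against 13.9% to 16.2% and 2.49% to 3.73% in the other quadriceps samples. The same was present at higher depth: among 167 kept events with over 50 reads a sample, 50 were at 100% in sample 3 and 17 to 29 in the others. The median distance from the event's median PSI was 8.17% in sample 3 and 3.37% to 4.40% in the other quadriceps samples. Where leaving it out turned the printed quadriceps difference of a named exon, moved it by over 1.5 times or ended a call, both values are given.

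Most of the kept exons were included in most transcripts. Median PSI was 73.4% in the gastrocnemius on the ground (quartiles 33.4% and 90.5%), 71.3% in flight, 74.3% in the quadriceps on the ground and 74.8% in flight, beside 62.2%, 62.1%, 62.2% and 63.4% over all kept events of both event types. In the gastrocnemius on the ground 153 of 590 events were above 90%, 238 between 50% and 90%, 144 between 10% and 50%, and 55 at 10% or less. Levels differed by the annotation of the exon in both muscles and both conditions. Exons coding throughout had a median PSI of 78.1% on the ground and 77.9% in flight in the gastrocnemius (505 events), and 78.8% and 79.2% in the quadriceps (480 events). Those of decay transcripts had 15.7% and 9.67% in the gastrocnemius (18 events), and 7.69% and 11.9% in the quadriceps (19 events). Exons with a start or stop codon, with 38.7% and 36.9% in the gastrocnemius (26 events), and those of non-coding transcripts, with 36.2% and 35.2% (19 events), lay between them. Next to the length threshold, the 26 kept gastrocnemius events of 63 bases had a median of 36.3% on the ground and 39.7% in flight, and the 22 of 60 bases just outside it 62.3% and 64.6%; in the quadriceps the values were 53.0% and 40.3% (21 events) and 66.8% and 50.7% (21 events).

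**Figure D1:**
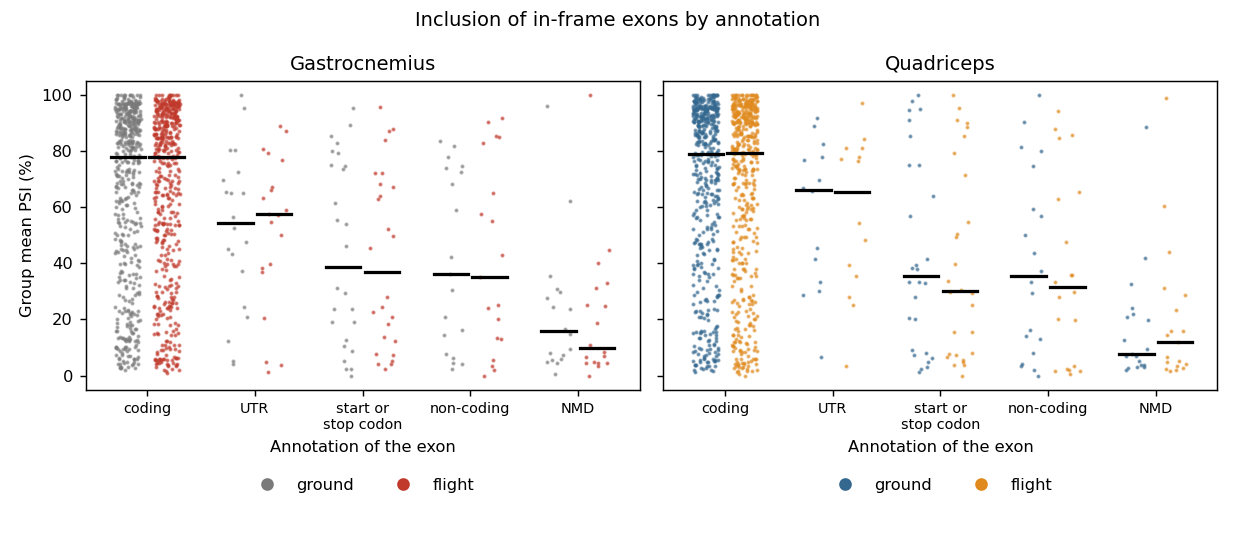
Each point is the mean PSI (%) of 1 kept in-frame exon event in 1 group of 3 samples, by annotation class, for ground and flight in each muscle, and black bars are class medians. Exons coding throughout have medians of 77.9% to 79.2% in the 4 groups, and exons of decay transcripts have medians of 7.69% to 15.7%.

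The spread between samples set what could be seen. Over 3 samples the median SD of PSI was 6.29% in gastrocnemius ground, 6.32% in gastrocnemius flight, 9.39% in quadriceps ground and 6.65% in quadriceps flight. For gastrocnemius events with 10 to 20 reads a sample (190 events) the median pooled SD was 12.5%, and for those with over 200 reads (26 events) it was 2.80%. The same classes in the quadriceps had 16.9% (159 events) and 3.48% (34 events). Median sizes of the difference between flight and ground were 7.10% at 10 to 20 reads, 4.74% at over 20 to 50, 2.27% at over 50 to 200 and 3.41% at over 200 in the gastrocnemius, and 11.1%, 5.84%, 3.82% and 2.77% in the quadriceps.

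The first comparison asks which of these exons are used differently in the gastrocnemius after flight. Among the exons whose samples lay apart, those of Cat, Mtdh, Mef2c, Phka1 and Chtop had higher inclusion in flight and those of Lrrfip1, Pabpc4 and Chd2 lower, but no exon passed the test across all events. Limma called 0 of 590 events at an adjusted p under 0.05 with a difference over 5%, beside 8 of 2118 events of all kinds (0.378%). At an unadjusted limma p under 0.05 there were 46 (7.80%), beside 9.49% of all events; 22 were higher in flight, beside 5% of all events, and 24 lower, beside 4.49%. Limma weighted by reads and a quasi-binomial model also called 0, beside 36 and 29 of 2118 events of all kinds (1.70% and 1.37%), with 32 and 33 events at an unadjusted p under 0.05. The flight and the ground samples lay apart in 77 events (13.1%, beside 16.2% of all events), and in 62 of them (10.5%, beside 13.3%) the difference was over 5%, 26 higher, beside 6.80% of all events, and 36 lower, beside 6.52%. The median size of the difference was 4.37%, beside 4.41% over all events, and 295 events were higher and 295 lower in flight. Without gastrocnemius flight sample 2 the count of called events was 1, the 144-base Mef2c exon. The share called over all events in that fit is not given here.

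Cat encodes catalase, the peroxisomal enzyme that breaks down hydrogen peroxide. Its exon 6 was in 94.4%, 92.0% and 97.0% of transcripts in the ground samples and in 100% in each flight sample, where 176 inclusion reads and 0 skipping reads allow a PSI down to 96.7% by counting error (3 counts). All 3 flight samples were above all 3 ground samples. The log2 ratio of inclusion to skipping differed by 2.01 (SE 0.48) with a limma adjusted p of 0.186. Mtdh encodes metadherin, an RNA-binding membrane protein of the endoplasmic reticulum, and its 66-base exon had 91.7%, 88.6% and 93.8% on the ground. In flight it had 100% in every sample, from 142 inclusion reads and no skipping read (floor 95.9%), so that the groups did not overlap; the log2 difference was 2.21 (SE 0.57, limma adjusted p 0.215). Such exons at 100% in one group rest on few skipping reads, 6 for Cat and 8 for Mtdh over the 3 ground samples.

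Mef2c, a transcription factor of muscle development and of adult fibres, has 2 exons in the list that lie one after the other between the same neighbours. The 144-base exon had 89.2%, 89.8% and 91.8% on the ground and 98.8%, 94.4% and 98.7% in flight. For the 138-base exon the values were 95.0%, 93.2% and 95.8% on the ground and 99.2%, 97.5% and 99.2% in flight. In both exons every flight sample was above every ground sample. Each of these PSI values sets 1 exon against the skipping of both. Transcripts with the other exon are left out, so neither value is a share of all Mef2c transcripts. The second exon had the smallest limma adjusted p of any of these events in the gastrocnemius (0.139, log2 difference 1.90, SE 0.42), with a PSI difference of 3.99%. For the first, the PSI difference was 7.06% (log2 2.03, SE 0.54, limma adjusted p 0.235), and without gastrocnemius flight sample 2 it was 8.51% (log2 2.66, adjusted p 0.0371; range when each sample was left out in turn, 0.0371 to 0.5003). The 2 events are 1 measurement of skipping, since both count the reads of 1 junction that skips both exons, 17 on the ground and 5 in flight in the gastrocnemius. Read as a choice between the 2 exons, the share of the first was 30.2%, 39.3% and 33.0% on the ground and 38.9%, 30% and 39.5% in flight, and the groups overlapped (limma adjusted p 0.917). Total Mef2c expression was 386 TPM on the ground and 467 in flight in this muscle (log2 fold change 0.27, limma adjusted p 0.285).

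Phka1 encodes the muscle form of the alpha subunit of phosphorylase kinase, which switches on glycogen breakdown in response to calcium. Its 177-base exon was in 55.2%, 66.1% and 67.6% of transcripts on the ground. In flight it was in 74.7%, 79.1% and 80.7%, all above the ground samples. The means were 62.99% ± 6.77 on the ground and 78.2% ± 3.10 in flight (SD, n = 3). That difference did not pass the test (log2 1.05, SE 0.35, limma adjusted p 0.339). Phka1 expression was 206 TPM on the ground and 209 in flight. Chtop, a protein of the complex that exports mRNA from the nucleus, had 76.5%, 76.9% and 78.9% inclusion of its 138-base exon on the ground and 91.3%, 100% and 94.3% in flight. Those samples did not overlap either, on 7 skipping reads on the ground and 2 in flight (limma adjusted p 0.305).

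Bin1, which shapes the T-tubule membrane, had 6.90%, 1.23% and 13.2% inclusion of a 129-base exon on the ground and 17.6%, 33.3% and 27.3% in flight (limma adjusted p 0.359). This exon was skipped in most transcripts of both groups, and its flight samples were all above the ground samples. Fam193b had 60%, 82.6% and 77.8% for a 240-base exon on the ground and 100%, 92.0% and 100% in flight, with 4 skipping reads on the ground and 1 in flight (limma adjusted p 0.295). The quadriceps values of that exon went the other way, with 100% in each ground sample and 75%, 66.7% and 69.2% in flight, but only 15 reads lay behind the ground values and the exon was not tested there.

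Exons with lower inclusion in flight included one that was never seen skipped on the ground. Lrrfip1, a leucine-rich repeat protein that binds the actin-remodelling protein Flii, had 100% inclusion of its 93-base exon in all 3 gastrocnemius ground samples, from 175 reads (floor 96.7%). In flight it had 95.8%, 88.9% and 97.8%, with 7 skipping and 243 inclusion reads (limma adjusted p 0.295). Pabpc4, a cytoplasmic poly(A)-binding protein, had 20.4%, 19.4% and 15.7% for its 87-base exon on the ground and 8.33%, 6.09% and 11.6% in flight (limma adjusted p 0.382). The chromatin remodeller Chd2 had 100%, 95.0% and 94.1% for a 108-base exon on the ground and 87.3%, 78.3% and 88.6% in flight (limma adjusted p 0.407). In each of the 3 the flight samples lay below all ground samples. An exon of Gbf1, an Arf activator of the Golgi, and an exon of Ergic2, of the compartment between endoplasmic reticulum and Golgi, are annotated in non-coding and decay transcripts. Gbf1 had 6.25%, 8.33% and 3.70% on the ground and 0% in flight from 50 reads (ceiling 2.91%), and Ergic2 4.35%, 3.23% and 9.09% and 0% from 44 reads (ceiling 3.30%). Each rests on 5 inclusion reads in the ground samples. In the quadriceps the groups overlapped for 9 of the 12 exons named in the gastrocnemius, with differences of 6.30% for Mtdh, 2.05% for the 144-base Mef2c exon, 3.76% for Chtop, 1.13% for Phka1, -6.56% for Ergic2, -0.894% for Pabpc4, -5.25% for Bin1, 1.42% for Chd2 and 1.41% for Gbf1, the last 3 opposite in sign to the gastrocnemius. Without quadriceps ground sample 3 it was 2.78% for Ergic2 and 0.558% for Bin1, so that the signs of these 2 turned, and 7.61% for Chtop, 5.24% for Phka1, -4.13% for Pabpc4, 0.127% for Chd2 and 0.348% for Gbf1.

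**Figure D2:**
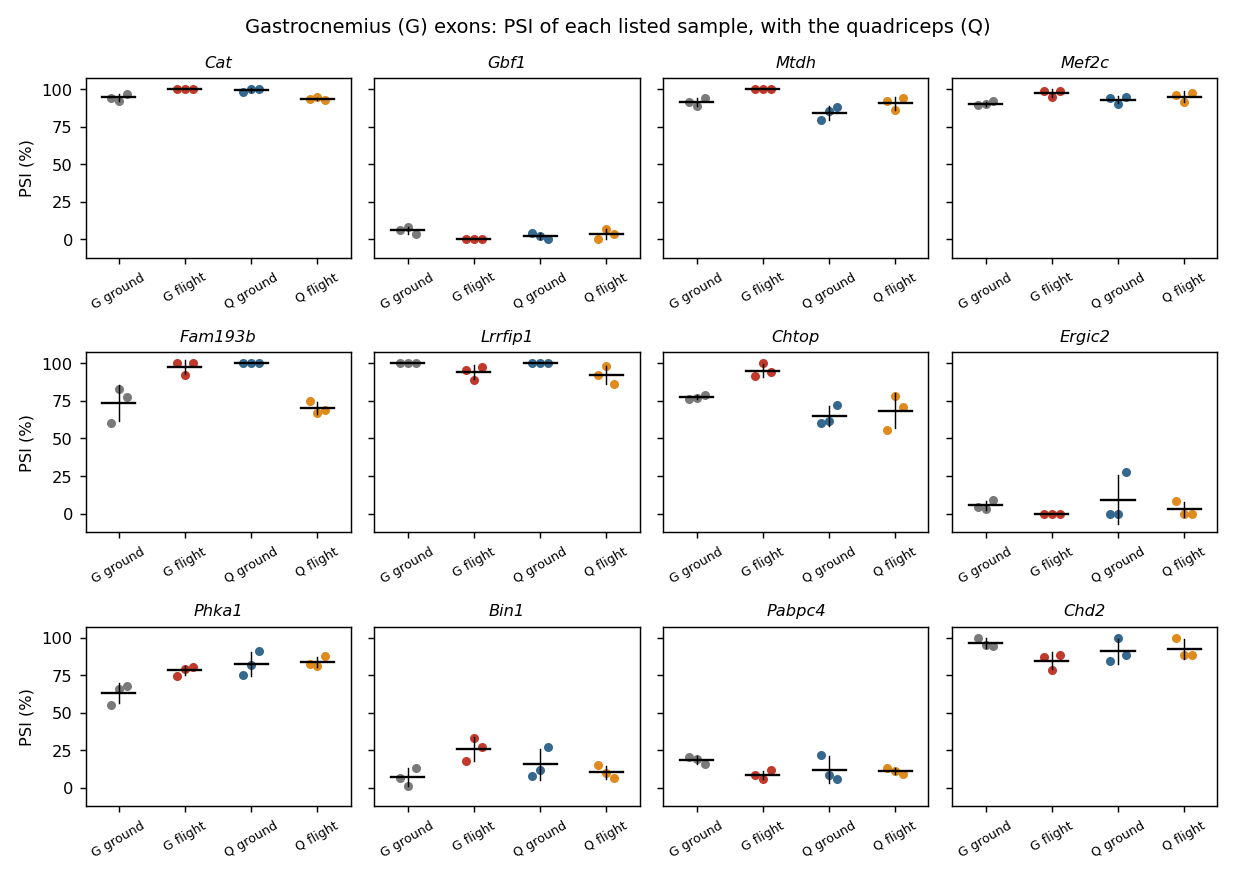
PSI (%) of each listed sample for the 12 exons named in the gastrocnemius, with the quadriceps values beside them; points are samples, bars are means and lines are the SD of 3 samples. In each panel the gastrocnemius flight samples lie apart from the ground samples, as in Phka1, where flight samples are at 74.7% to 80.7% and ground samples at 55.2% to 67.6%.

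Of 6 slow-fibre transcripts 2 were called lower in the flight libraries of the gastrocnemius. The summed level of 6 slow-twitch markers was 1924, 1575 and 1571 TPM on the ground and 996, 975 and 1179 in flight, a sum that was not tested. The 2 called were Myl2, the most abundant, from 479 to 190 TPM, and Myl3, from 275 to 147 TPM (limma adjusted p 0.0361 for each), and Tnni1, Tnnc1, Tnnt1 and Myh7 did not pass (adjusted p 0.0706, 0.0978, 0.384 and 0.406). Of the 6 fast-twitch markers 0 were called by limma, with 4 higher and 1 lower at an unadjusted p under 0.05, and their sum, led by Myh4, was 51683, 52268 and 51556 TPM on the ground and 57340, 58161 and 59167 in flight. None of these markers was at 0 in every library. From the RNA of whole muscle, fewer slow fibres and less slow-fibre RNA in each fibre cannot be told apart, and the part of fibre type in the exon values was not tested.

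The quadriceps comparison asks the same question in a muscle of the front of the thigh. Here 10 of the 12 exons named by the smallest p, among them exons of Add1, Mlip, Aplp2 and Eif4enif1, were lower in flight, and again no exon passed the test. Limma called 0 of 563 events, beside 0 of 2062 events of all kinds (0%), and the smallest adjusted p was 0.535. At an unadjusted limma p under 0.05 there were 26 events (4.62%), beside 7.66% of all events; 8 were higher in flight, beside 4.27% of all events, and 18 lower, beside 3.39%. Weighted limma and the quasi-binomial model called 0 too, beside 18 and 17 of 2062 events of all kinds (0.873% and 0.824%), with 35 and 31 events at an unadjusted p under 0.05. Samples of flight and ground did not overlap in 46 events (8.17%, beside 12.5%), and in 43 (7.64%, beside 10.6%) the difference was over 5%, with 14 higher, beside 5.33% of all events, and 29 lower, beside 5.29%. Over all 563 kept events 290 were higher and 272 lower. A difference over 5% in either direction was present in 309 events (54.9%, beside 52.5%), 156 higher and 153 lower, and the median size over all kept events was 5.59%, beside 5.40%. Without quadriceps ground sample 3, limma called 0 events with 43 at an unadjusted p under 0.05, and the smallest adjusted p was 0.391.

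Several of these exons were seen only included on the ground. Lrrfip1 again had 100% in all 3 ground samples, from 275 reads (floor 97.9%), and 91.9%, 98.3% and 86.0% in flight, with 12 skipping and 294 inclusion reads. The flight samples of both muscles thus lay below all 6 ground samples of this exon, with a PSI difference of -5.85% in gastrocnemius and -7.92% in quadriceps (log2 -2.78, SE 0.74, limma adjusted p 0.535, and 0.572 without ground sample 3). The muscles come from the same 6 mice and are not independent. Lrrfip1 expression was 89.97 TPM on the ground and 118 in flight in the gastrocnemius (limma adjusted p 0.112), and 109 and 134 in the quadriceps (adjusted p 0.414).

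Add1 encodes alpha-adducin, which caps actin filaments and ties them to spectrin under the membrane. Its 87-base exon had 77.8%, 100% and 100% in the quadriceps ground samples and 72.3%, 59.0% and 46.9% in flight, a difference of -33.2% (log2 -3.55, SE 1.06, limma adjusted p 0.535). Without ground sample 3 it was -29.5% (adjusted p 0.579). The highest flight sample was near the lowest ground sample, and the ground samples spread widely. Gastrocnemius values were 58.1%, 58.1% and 73.3% on the ground and 56.9%, 53.3% and 51.7% in flight, also without overlap (limma adjusted p 0.808).

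The 156-base exon of Mlip, a muscle protein that binds lamin A/C, had 65.2%, 91.3% and 100% on the ground and 48.1%, 50% and 44.4% in flight, a difference of -38.0% with ground sample 3 and -30.7% without it (limma adjusted p 0.617 and 0.693). No flight sample reached a ground sample, with 5 skipping reads on the ground and 23 in flight. Eif4enif1, which carries the cap-binding factor eIF4E, had 100% for its 72-base exon in each ground sample, from 46 reads (floor 88.5%), and 78.6%, 44.4% and 70.0% in flight, a difference of -35.7% with and without ground sample 3 (limma adjusted p 0.548). For Aplp2, a relative of the amyloid precursor protein, a 168-base exon had 86.7%, 87.0% and 97.6% on the ground and 71.1%, 70.5% and 64.0% in flight, a difference of -21.9% (limma adjusted p 0.548). Gastrocnemius samples of the Aplp2 exon overlapped, at 53.3%, 86.1% and 78.2% on the ground and 69.7%, 81.6% and 49.5% in flight.

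Fnip1, a partner of folliculin and AMPK in energy sensing, had 100% for its 84-base exon in the 3 ground samples, from 73 reads (floor 92.4%), and 85.7%, 72.7% and 83.3% in flight. Ndufaf1, an assembly factor of mitochondrial complex I, had 100% for a 186-base exon on the ground, from 150 reads (floor 96.2%), and 85.2%, 88.9% and 95.5% in flight. The polycomb protein Pcgf3 had 100% on the ground from 248 reads (floor 97.6%) and 97.4%, 84.8% and 97.3% in flight. In these 3 exons all skipping reads came from flight samples, 8, 7 and 8 in number, and their limma adjusted p were 0.548, 0.597 and 0.548. Aamdc had 92.5%, 91.7% and 94.7% on the ground and 77.8%, 60.7% and 79.6% in flight for a 96-base exon, with flight below ground in every sample (limma adjusted p 0.584). Higher in flight were exons of Epn1, an epsin of clathrin-coated pits, with 93.3%, 89.5% and 79.7% on the ground and 100%, 97.98% and 95.6% in flight (limma adjusted p 0.548), and of the histone demethylase Kdm3b. The 600-base Kdm3b exon had 73.9%, 86.7% and 75.6% on the ground and 100% in flight, from 62 reads (floor 91.2%, limma adjusted p 0.584). Without quadriceps ground sample 3 the difference of the Epn1 exon was 6.46% in place of 10.3%, that of Aplp2 -18.3% and that of Kdm3b 19.7%, while those of Fnip1, Ndufaf1, Pcgf3 and Eif4enif1 did not move, and the limma adjusted p of these 7 exons and Aamdc then ran from 0.572 to 0.621. In the gastrocnemius 5 of the exons in this and the former paragraph differed in the opposite direction: Eif4enif1 by 13.7%, Aamdc by 11.7%, Ndufaf1 by 7.46%, Fnip1 by 7.26% and Epn1 by -4.13%. Those of Mlip (-1.60%), Pcgf3 (-1.78%) and Kdm3b (5.45%) differed in the same direction, and in all 8 the gastrocnemius groups overlapped.

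**Figure D3:**
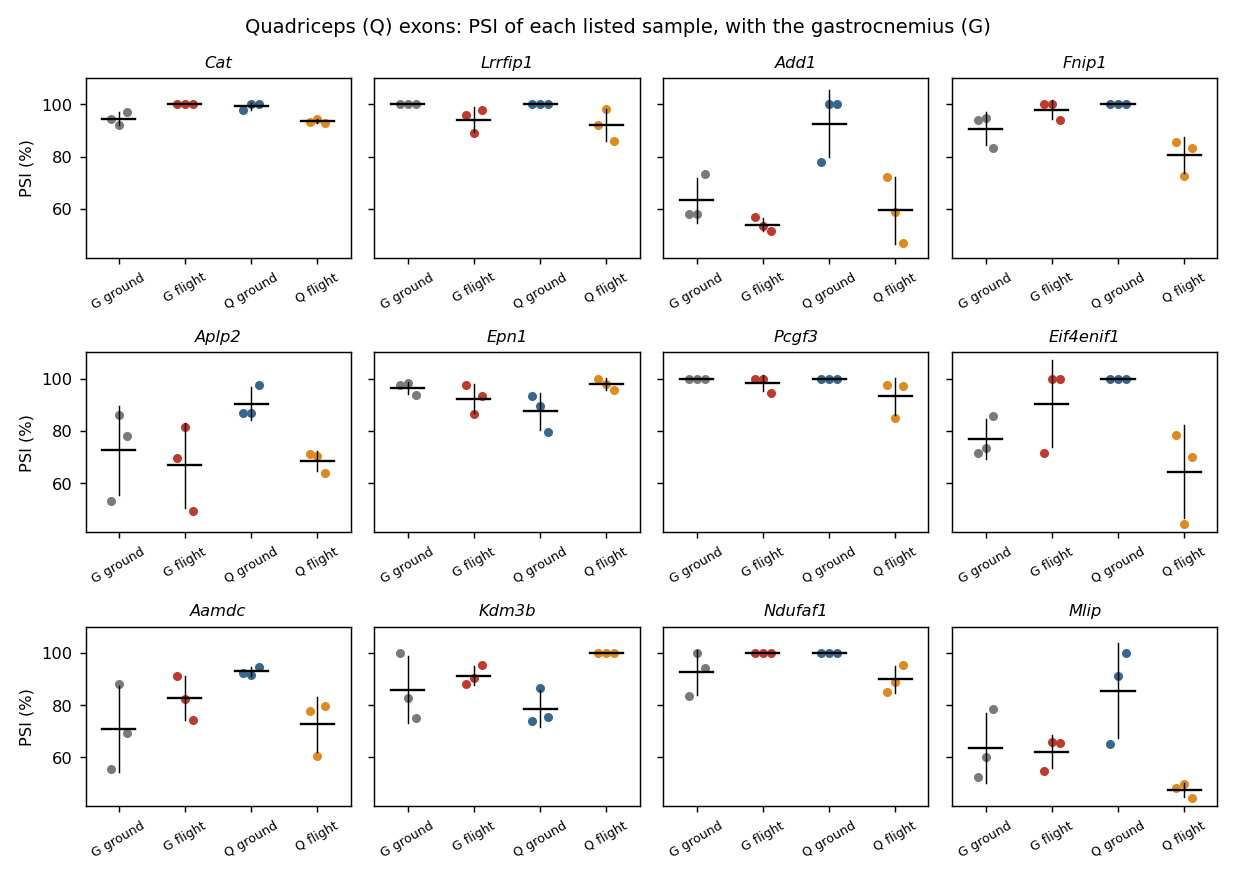
PSI (%) of each listed sample for the 12 exons named in the quadriceps, with the gastrocnemius values beside them; points are samples, bars are means and lines are the SD of 3 samples, and the axis does not start at 0. Quadriceps flight samples lie below ground samples in 10 panels and above in Epn1 and Kdm3b.

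Fat-cell transcripts did not pass the test in either muscle. Summed TPM of 5 adipocyte markers in the quadriceps was 209, 145 and 89.3 on the ground and 61.2, 45.9 and 77.4 in flight, with Cfd the most abundant, 0 called by limma and 5 of 5 lower at an unadjusted p under 0.05. In the gastrocnemius the sums were 95.2, 76.5 and 41.5 on the ground and 60.9, 83.0 and 35.5 in flight, with 0 at an unadjusted p under 0.05. None of the 5 was at 0 in every library, and their part in the exon values was not tested. The slow-twitch sum in the quadriceps was 793, 1972 and 1990 TPM on the ground and 1531, 1078 and 1212 in flight, with 0 of 6 called and 0 at an unadjusted p under 0.05. The fast-twitch sum there was 70102, 75359 and 71713 TPM on the ground and 80075, 78740 and 81862 in flight, all above the ground libraries, with 0 of 6 called and 1 higher and 1 lower at an unadjusted p under 0.05.

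**Figure D4:**
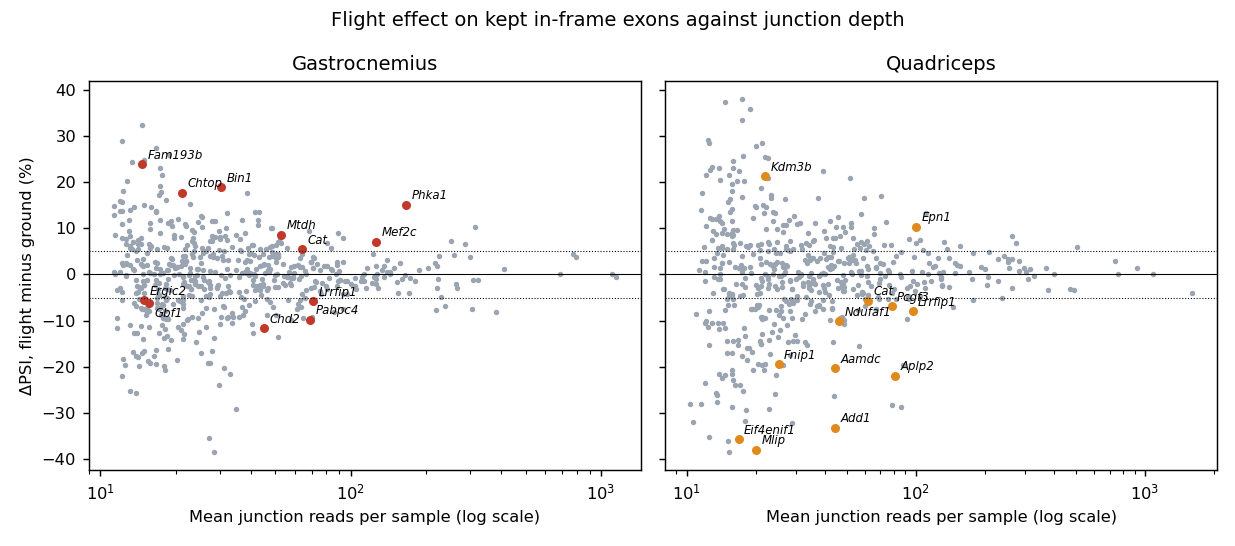
Difference in PSI (%, flight minus ground) of each kept in-frame exon event against its mean junction reads per sample (log scale) in each muscle; grey points are events, coloured points are the named exons and dotted lines mark a difference of 5%. In the 4 depth classes, from 10 to 20 reads up to over 200, the median size is 7.10%, 4.74%, 2.27% and 3.41% in the gastrocnemius and 11.1%, 5.84%, 3.82% and 2.77% in the quadriceps.

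Whether the flight difference of an exon was the same in the 2 muscles was put to an interaction test over 509 of these events kept in both. The Cat exon was the single event called, 1 of 509 (0.196%), beside 3 of 1858 events of all kinds (0.161%), with 33 at an unadjusted limma p under 0.05 (6.48%, beside 6.78%). In the quadriceps it had 97.7%, 100% and 100% on the ground and 93.2%, 94.4% and 92.9% in flight, so that flight samples were below all ground samples there and above them in the gastrocnemius. Flight differences were 5.54% (gastrocnemius) and -5.73% (quadriceps), and the difference between them was -11.3% (log2 -4.22, SE 0.75, limma adjusted p 0.0442). The whole contrast rests on 12 skipping reads: 6 in gastrocnemius ground, 0 in gastrocnemius flight, 1 in quadriceps ground and 5 in quadriceps flight. Within the quadriceps alone the limma adjusted p was 0.535, and 0.572 without ground sample 3. Weighted limma and the quasi-binomial model called 0 interactions, beside 6 of 1858 events of all kinds in each (0.323%), with 37 and 26 at an unadjusted p under 0.05. Limma with 0.1 or 1 added to each count, with over 20 reads or with no filter called 0 of these events as well. With each sample left out in turn the call was kept only without gastrocnemius flight sample 2 (adjusted p 0.0355) and was lost without each of the other 11, with an adjusted p of 0.0715 without quadriceps ground sample 3 and the highest at 0.174. Over the other alternatives its adjusted p ran from 0.0378 to 0.553. Expression of Cat was 58.8 TPM on the ground and 50.8 in flight in the gastrocnemius, and 68.2 and 55.7 in the quadriceps (limma adjusted p 0.382 and 0.452).

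Quadriceps and gastrocnemius differed from each other in 6 exons of 6 genes, 3 with more and 3 with less inclusion in the quadriceps. Phka1, Qser1 and Mical2 had higher inclusion in the quadriceps, and Mtdh, Pphln1 and Chtop lower. These 6 are 1.18% of the 509 events kept in both muscles, beside 154 of 1858 events of all kinds (8.29%). The 154 lie in 18 genes, and events of all kinds do not leave out Ttn and Neb. They come to 113 exons with each mutually exclusive pair counted as 1. Of the 509 events, 42 (8.25%, beside 17.3%) had an unadjusted limma p under 0.05. The median size of the difference was 3.92%, beside 4.32% over all events. Since both muscles come from the same mice and the samples cannot be matched, the test treats the 12 samples as independent.

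The phosphorylase kinase subunit Phka1 averaged 70.6% across gastrocnemius samples and 83.2% across quadriceps samples, which were at 75.2%, 81.8% and 90.9% on the ground and 82.4%, 81.2% and 87.7% in flight. The difference was 12.6% (log2 1.05, SE 0.30, limma adjusted p 0.0460), and the flight gastrocnemius samples, at 74.7% to 80.7%, overlapped the quadriceps range. Qser1, a protein rich in glutamine and serine, had 82.2%, 81.0% and 70.4% on the ground and 81.5%, 70.6% and 86.9% in flight in the gastrocnemius. In the quadriceps its 138-base exon was at 92.2%, 91.1% and 100%, and at 91.0%, 85.2% and 94.3% in flight, a difference of 13.5% (log2 1.62, SE 0.46, adjusted p 0.0427). One quadriceps sample lay within the gastrocnemius range. The actin-oxidising enzyme Mical2, chosen after its values were seen, had a 108-base exon (chr7:112345246-112345353, plus) at 93.9%, 91.0% and 92.5% on the ground and 94.3%, 88.4% and 86.9% in flight in the gastrocnemius. Its quadriceps values were 93.3%, 100% and 100% on the ground and 100%, 96.3% and 97.1% in flight, a difference of 6.61% (log2 2.10, SE 0.57, adjusted p 0.0324). One quadriceps sample of the 6 lay below the highest gastrocnemius samples.

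Mtdh had the smallest adjusted p between muscles. Its exon was at 79.2%, 85.1% and 88.1% in the quadriceps ground samples and 91.8%, 85.7% and 93.8% in flight, against 88.6% to 93.8% on the ground and 100% in flight in the gastrocnemius. The difference was -8.42% (log2 -1.57, SE 0.40, limma adjusted p 0.0207). The muscles did not overlap among ground samples or among flight samples, but quadriceps flight samples reached the gastrocnemius ground range. Pphln1, a member of a complex that silences repeated DNA, had 100%, 80.0% and 100% on the ground and 83.3%, 100% and 100% in flight in the gastrocnemius, and 62.5%, 70.0% and 73.9% and then 62.5%, 71.4% and 84.6% in the quadriceps. That difference was -23.1% (log2 -2.18, SE 0.61, adjusted p 0.0389), on 104 reads in each muscle, with a single quadriceps flight sample inside the gastrocnemius range. Chtop was at 60%, 61.8% and 72.4% on the ground and 55.9%, 78.6% and 71.0% in flight in the quadriceps, against 76.5% to 78.9% and 91.3% to 100% in the gastrocnemius. Its difference was -19.7% (log2 -1.55, SE 0.45, adjusted p 0.0462), with 1 quadriceps sample among the gastrocnemius ground values.

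The 6 calls were sensitive to single samples. Without gastrocnemius ground samples 1, 2 and 3 in turn limma called 1, 2 and 0 events, without gastrocnemius flight samples 3, 1 and 3, without quadriceps ground samples 10, 7 and 5, and without quadriceps flight samples 2, 4 and 4. Over events of all kinds these fits called from 126 to 171 of 1858, beside 154 in the main fit. Without quadriceps ground sample 3, Mtdh, Pphln1 and Chtop stayed called, and the 3 exons with higher inclusion in the quadriceps did not: differences were then 10.6% for Phka1, 12.2% for Qser1 and 6.05% for Mical2 (adjusted p 0.0715, 0.0679 and 0.0765). Weighted limma called 11 and the quasi-binomial model 10, beside 191 and 173 of 1858 events of all kinds (10.3% and 9.31%), and in both only Chtop and Phka1 are among the 6. With 1 event per exon limma called 2, Mtdh and Mical2, beside 98 of 1693 events of all kinds. With 0.1 added to each count limma also called 6, of which 2 (Mtdh and Pphln1) are among the 6 above, beside 149 of 1858 events of all kinds. The Mtdh exon stayed past the threshold in 12 of 19 alternative fits, Mical2 in 8 of 19, Pphln1 in 7 of 18, Qser1 in 7 of 19, Chtop in 6 of 18 and Phka1 in 5 of 19.

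Other exons differed between muscles by over 10% and did not pass the test in the main fit. Mff, the receptor that draws the fission enzyme to mitochondria, had a 75-base exon at 27.3%, 22.1% and 17.9% on the ground and 23.8%, 22.0% and 20.4% in flight in the gastrocnemius. In the quadriceps it was at 13.4%, 10.9% and 15.9%, and at 4.65%, 16.1% and 6.19% in flight, so that all 6 quadriceps samples lay below all 6 gastrocnemius samples (difference -11.0%, limma adjusted p 0.0699). Of the 8 exons named for this comparison it was the only one whose muscles did not overlap. Dysf, which reseals the torn muscle membrane, had a mean of 18.9% in the gastrocnemius and 8.56% in the quadriceps for a 93-base exon (adjusted p 0.0543). The matrix protein Fbln2 had 32.0% and 64.8% for a 141-base exon (adjusted p 0.0707), and the secreted Pi16 85.0% and 98.04% for a 786-base exon (adjusted p 0.0669). Alternative fits called Dysf in 4 of 19, Fbln2 in 4 of 18, Mff in 3 of 19 and Pi16 in 2 of 18. Weighted limma and the quasi-binomial model both called Mff (adjusted p 0.0128 and 0.0208), Dysf (0.0132 and 0.0260) and Fbln2 (0.0364 and 0.0342). Limma with 0.1 added to each count called Pi16 (adjusted p 0.0150).

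**Figure D5:**
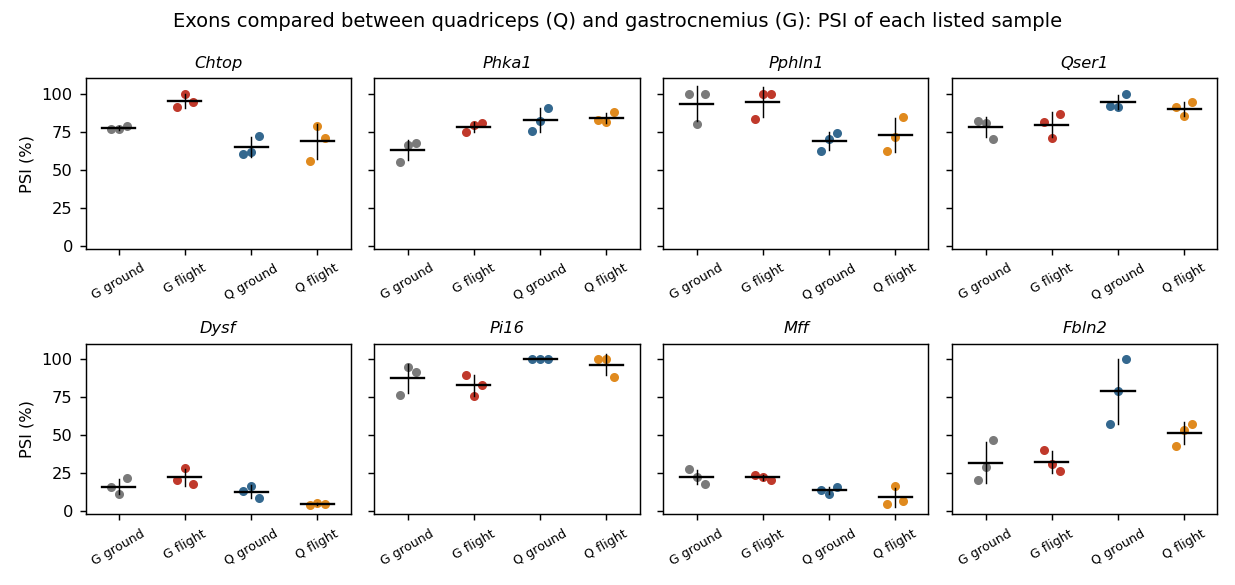
PSI (%) of each listed sample in the 4 groups for the 8 exons named between muscles; points are samples, bars are means and lines are the SD of 3 samples. Mff is the only panel in which the 6 quadriceps samples (4.65% to 16.1%) lie wholly apart from the 6 gastrocnemius samples (17.9% to 27.3%).

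Grouped by the work of their genes, no group held an exon that limma called in either muscle; the counts at an unadjusted p under 0.05 follow for each, beside 9.49% of all events in the gastrocnemius and 7.66% in the quadriceps, with the median of the event differences. Sarcomere and Z-disc genes (9 of 77 on the list with an exon here, 31 kept gastrocnemius events) had 1 higher and 2 lower in flight (9.68%, median difference -0.747%), and 0 higher and 2 lower of 31 in the quadriceps (6.45%, median 0.350%). Their exons had the most reads of the 7 lists. Xirp2, an actin-binding protein of the Z-disc and the fibre ends, had a 138-base exon at 81.2%, 82.8% and 84.2% on the ground and 83.7%, 82.0% and 82.9% in flight in the gastrocnemius, on 334 and 289 skipping reads, and the groups overlapped. Its quadriceps values were 84.7%, 82.4% and 92.1% on the ground and 82.0%, 83.2% and 82.1% in flight; the 92.1% is that of ground sample 3, and the difference of -3.97% was -1.12% without it. Nrap, an anchor of growing myofibrils, had a 105-base exon at 62.1%, 61.8% and 62.7% on the ground and 65.5%, 70.6% and 63.6% in flight in the gastrocnemius, without overlap (difference 4.36%, limma adjusted p 0.729). The giant protein obscurin had a 264-base exon at 95.7% ± 2.64 on the ground and 96.9% ± 2.36 in flight in the gastrocnemius, and at 89.1% ± 9.08 and 95.1% ± 2.58 (SD, n = 3) in the quadriceps, where the groups overlapped and the difference of 6.00% was 0.890% without ground sample 3.

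Genes of the triad, sarcolemma and calcium handling (14 of 63, 27 kept events) had 3 higher and 2 lower in the gastrocnemius (18.5%, median difference 1.28%) and 0 and 0 of 26 in the quadriceps (0%, 0.419%). Phka1, described above, is among them, and Ano5, a membrane protein whose loss causes limb-girdle dystrophy, had a 69-base exon at 87.7% ± 6.06 and 89.5% ± 9.25 (SD, n = 3) in the gastrocnemius. Camk2g, a calcium-activated kinase, was nearly always without its 114-base exon, at 2.86%, 5.34% and 6.06% on the ground and 4.90%, 6.78% and 5.64% in flight in the gastrocnemius, and at 2.60%, 1.18% and 0%, and 0%, 0.654% and 5.43%, in the quadriceps. Cytoskeleton and adhesion genes (36 of 92, 66 kept events) had 1 higher and 5 lower in the gastrocnemius (9.09%, median difference -1.38%) and 1 and 4 of 59 in the quadriceps (8.47%, 2.19%). Kinectin (Ktn1), which joins kinesin to the endoplasmic reticulum, had 3 of the most deeply read exons. Its 87-base exon was at 54.8%, 53.7% and 54.1% on the ground and 61.3%, 55.1% and 58.8% in flight in the gastrocnemius, without overlap (limma adjusted p 0.839), and its 72-base exon at 76.0% ± 6.52 and 82.7% ± 4.03 (SD, n = 3), with overlap.

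RNA-binding and processing genes (33 of 134, 36 kept events) had 2 higher and 2 lower in the gastrocnemius (11.1%, median difference 0.0638%) and 0 and 2 of 35 in the quadriceps (5.71%, -1.09%). Hnrnpa2b1, a splicing and transport factor, had a 120-base exon at 88.4% ± 2.02 on the ground and 88.4% ± 1.03 in flight (SD, n = 3) in the gastrocnemius, from 102 and 150 skipping reads.

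Transcription and chromatin genes (36 of 152, 40 kept events) had 3 higher and 1 lower in the gastrocnemius (10%, median difference -0.975%) and 3 and 1 of 41 in the quadriceps (9.76%, 0.493%). Of the 3 higher in the gastrocnemius, 2 are the Mef2c events that share 1 measurement of skipping. The Mef2c exons are among the most deeply read of them, and a 72-base exon of Mllt3, a subunit of transcription elongation complexes, overlapped between flight and ground in both muscles. Ubiquitin and autophagy genes (22 of 101, 27 kept events) had 2 higher and 1 lower in the gastrocnemius (11.1%, median difference -0.874%) and 1 and 1 of 27 in the quadriceps (7.41%, 3.18%). The gene of the ubiquitin ligase Huwe1 had a 234-base exon that is annotated in non-coding or retained-intron transcripts. This exon was at 75.5%, 72.8% and 75.9% on the ground and 82.0%, 93.7% and 88.2% in flight in the quadriceps, without overlap (difference 13.2%, limma adjusted p 0.631), while its gastrocnemius samples overlapped at 83.6% ± 13.8 and 82.8% ± 3.34 (SD, n = 3). An exon of Ubap2l (75 bases) overlapped between flight and ground in both muscles. Membrane traffic genes (30 of 108, 45 kept events) had 3 higher and 2 lower in the gastrocnemius (11.1%, median difference -0.331%) and 1 and 1 of 40 in the quadriceps (5%, -0.511%). Golga4, a golgin of the trans-Golgi, had an 84-base exon at 63.1%, 70.9% and 61.8% on the ground and 61.6%, 52.4% and 61.3% in flight in the gastrocnemius, a difference of -6.87% with the groups just apart (limma adjusted p 0.729).

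Expression of the genes that carry these exons is a separate readout of the same muscles. In the gastrocnemius 488 of 491 genes were tested on log2 TPM and limma called 0 at an adjusted p under 0.05 and over 1.5-fold, beside 24 of 10481 genes (0.229%), with 72 at an unadjusted p under 0.05 (14.8%, beside 15.1%). In the quadriceps 492 of 495 were tested and 0 called, beside 3 of 10481 (0.0286%), with 64 at an unadjusted p under 0.05 (13.0%, beside 10.8%). Median expression was 36.8 TPM on the ground and 38.8 in flight in the gastrocnemius, and 42.2 and 43.9 in the quadriceps, a median log2 fold change of 0.07 and 0.06 beside 0.02 and 0.01 over all genes tested.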

How the data were processed

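Polyadenylated RNA of 12 mouse muscle libraries was aligned to mm10 by the authors with STAR 2.7.1a, and the deposited tables hold junction read counts, as whole numbers for the 3 samples of each group, with the effective lengths of the inclusion and skipping forms in bases. The authors removed events with few junction reads or extreme PSI. The deposited expression table holds transcript abundance in TPM that the authors made with kallisto 0.46.0. The authors' own comparison columns (p-values, false discovery rates and inclusion differences of flight and ground) were not used; DESeq2 1.26.0 is named in the labels and was not used here.

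PSI was the length-normalised share of inclusion reads, in percent. Limma 3.58.1 in R 4.3.3 modelled log2 of inclusion reads per effective base over skipping reads per effective base (0.5 added to each count), and eBayes let the prior variance follow the mean log2 reads. It ran over all kept skipped and mutually exclusive events, and p-values were two-sided and adjusted by Benjamini-Hochberg over all of them. A sample with 0 reads in an event was set to missing, which in kept in-frame exons concerned 6 events of quadriceps ground sample 3. Kept events had a mean of over 10 reads in both groups and not all 6 PSI at or under 5% or at or over 95%; calls needed an adjusted p under 0.05 and a difference over 5%, and for the interaction the adjusted p alone. Contrasts between muscles used all 12 samples in 4 groups and events with the same coordinates. Expression was tested by limma on log2(TPM + 1) over genes above 5 TPM in at least 1 library, called at an adjusted p under 0.05 and over 1.5-fold. An exact permutation test of 3 against 3 samples cannot give a p under 0.1, so none is given. The fit was tested on simulated data. Tables were read with Python 3.11.15, pandas 2.3.3 and numpy 2.4.6, and exons were placed on GENCODE vM21.

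Samples of a group were checked as separate replicates: chi-square per degree of freedom between pairs ran from 2.78 to 8.22. Intervals and floors (3 counts) cover counting error only. Named exons were, per muscle, any called and then up to 12 by the smallest limma p among exons with groups apart and a difference over 5%, the 8 with the smallest adjusted p and over 10% between muscles, and the 3 most deeply read of each of 7 gene lists; some of the named exons and marker lists are not reported here. Members and lists were chosen with earlier results of these data known. Marker lists were those of skeletal muscle, slow-twitch and fast-twitch fibres, adipocytes, blood, Schwann cells, endothelium, tendon and macrophages. Alternatives were 0.1 or 1 added to each count, over 20 reads or no filter, limma weighted by reads, a quasi-binomial model, 1 event per exon, a difference over 10%, each sample left out in turn, and for TPM a pseudocount of 0.1 or no filter.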

Additional observations from a re-analysis of the deposited data

Results flagged for a closer look

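The flight difference of the Cat exon was larger than 0 in the gastrocnemius and smaller than 0 in the quadriceps, and the test of the difference between the muscles gave a limma adjusted p of 0.0442. PSI was 94.5% on the ground and 100% in flight in the gastrocnemius, and 99.2% and 93.5% in the quadriceps. The value rests on 12 skipping reads over 12 samples, and no other in-frame exon passed this test.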

How the results depend on the processing

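Called counts for flight against ground stayed at 0 in the gastrocnemius under 13 of 14 alternatives, with 0 to 1 called when each sample was left out (limma, 31 to 41 events at an unadjusted p under 0.05, and 51 with no filter), and at 0 in the quadriceps under all 14 (17 to 43). Between muscles the count of 6 became 11 with limma weighted by reads, 10 with the quasi-binomial model and 2 with 1 event per exon, and ran from 0 to 10 when each sample was left out. It was 4 with a difference over 10%, beside 114 of 1858 events of all kinds. The count stayed at 6 with 0.1 added, 1 added, over 20 reads and no filter, but only 2, 4, 4 and 5 of these were exons called by the main fit, as were 2 of the 11, 2 of the 10 and both of the 2. Over events of all kinds the counts were 149 of 1858 with 0.1 added, 159 of 1858 with 1 added, 158 of 1254 with over 20 reads and 168 of 2320 with no filter. When each sample was left out they ran from 126 to 171 of 1858. The interaction count of 1 became 0 with 0.1 added, 0 with 1 added, 0 with over 20 reads, 0 with no filter, 0 with weighted limma and 0 with the quasi-binomial model, and ran from 0 to 1 when each sample was left out (24 to 46 at an unadjusted p under 0.05). The cause of these changes was not tested. No share over all events is given here for the alternative counts at an unadjusted p under 0.05. The same holds for flight and interaction calls with a sample left out. Such counts are not read as above or below that share. Expression of the host genes gave 0 calls under all 8 alternatives in each muscle. For 33 results on named exons, 473 values under alternatives gave 393 with the same direction and side of the threshold, 66 no longer past it, 14 newly past it and 0 reversed. Most of the 393 belong to results that were not past it in the main fit. Those no longer past it were 17 of 19 values for the Cat interaction and, between muscles, 14 of 19 for Phka1, 12 of 19 for Qser1, 12 of 18 for Chtop and 11 of 18 for Pphln1.

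No paired analysis of exon inclusion was possible because the junction counts carry no sample names that match the muscles of a mouse. The expression libraries are named by mouse, but expression was not compared between muscles. With 3 samples a group and a median of 25 to 37 junction reads an event, differences of a few percent were not detectable for most exons, and an exon at 100% or 0% rests on few reads of the rarer form. Where a sample was left out, 2 samples of that group remained, and the spread was pooled with the other groups.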

Other observations

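Some of the marker lists not described with the comparisons are given here, each with 0 genes called by limma and 0 at an unadjusted p under 0.05 in either muscle, and none at 0 in every library. The 4 skeletal muscle markers, led by Acta1, summed to 42700, 45114 and 40965 TPM on the ground and 42187, 40642 and 38293 in flight in the gastrocnemius, which fits the labelled tissue, and to 54155, 56357 and 49023, and 54054, 49193 and 53245, in the quadriceps. The 4 blood genes, led by Hba-a2, summed to 751, 802 and 371 TPM on the ground and 340, 531 and 506 in flight in the gastrocnemius, and to 883, 531 and 745, and 448, 482 and 882, in the quadriceps. The 3 endothelial markers, led by Pecam1, summed to 71.7, 76.3 and 76.6 TPM on the ground and 87.7, 62.1 and 79.0 in flight in the gastrocnemius, and to 73.1, 66.3 and 80.0, and 78.7, 54.8 and 70.1, in the quadriceps. Tendon markers, led by Mkx, stayed between 6.29 and 10.6 TPM in the 12 libraries, and macrophage markers, led by Csf1r, between 6.504 and 12.7, and 1 of 3 genes of each list was tested.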
